A study of Mus musculus with 20 samples.

Results

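The 42 genes described here encode enzymes that make cyclic AMP (cAMP) and enzymes that degrade cyclic nucleotides. They also encode the protein kinase that cAMP activates, exchange factors that respond to cAMP, and transcription factors of the CREB and ATF families with their coactivators. They were 8 adenylyl cyclases, 14 phosphodiesterases, 2 catalytic and 4 regulatory subunits of protein kinase A (PKA), 3 PKA inhibitors, 6 CREB and ATF factors, 3 CREB coactivators and 2 Epac exchange factors. The genes were chosen by name as members of these families, from the 23413 gene names counted in every library. Adcy5 and Pde10a, a cyclase and a phosphodiesterase abundant in striatal spiny neurons, were left out of the 42. Adcy5 is given with other genes of the pathway, and Pde10a with the markers of those neurons. All 42 passed the filter on low counts and were among the 15660 genes tested, and the lowest count of any of them in any library was 16.

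The mice carried the human APOE4 allele in place of mouse Apoe, a knock-in that all groups shared, so that no diet effect was set against another genotype. From the age of 10 months they received equal energy as a carbohydrate-rich control diet (CD) or as a ketogenic diet (KD) of mostly fat, and their frozen brain cortex was taken at 22 months, after 12 months of feeding. Total RNA gave 1 library per mouse, with 5 females and 5 males on CD and 4 females and 6 males on KD. Mice were housed singly, and each was a separate animal.

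The library totals ran from 12207161 to 24674575 counts in CD females (median 17697342) and from 13589102 to 25756335 in KD females (median 19967209). Those of CD males ran from 15931191 to 29109990 (median 23068391) and those of KD males from 14740328 to 27957243 (median 21435568). The library numbers fell into 2 series, present in every group. Series 1 was the deeper, with totals from 21015275 to 29109990 against 12207161 to 17697342 in series 2, and the series was a term of the model.

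A few libraries stood apart from their groups in markers of striatal spiny neurons, a cell type of the tissue beneath the cortex. The summed level of 17 such markers, in CPM (counts scaled to the library total), was 2984, 3344 and 3767 in KD females E68, E61 and E207, but 439 in the remaining KD female, E227. It was 1313 in CD female E249 and between 348 and 482 in the other CD females. Among KD males it was 4951 in E59 and between 349 and 428 in the rest, and in CD males it ran from 345 to 964, the highest being E58. The most abundant of these markers, Pde10a, ran from 63.3 to 1108 CPM, none was at 0 in all libraries and 1 was at 0 in some. Markers of cortical excitatory neurons, the defining cells of the labelled tissue, were present in every library. Their sum over 9 genes was 337, 373 and 417 CPM in E61, E68 and E207 and 379 in E249, against 743 to 1029 in the other CD females, 826 in E227 and 766 to 1040 in males. Slc17a7, the most abundant of them, ran from 149.7 to 607 CPM. Further lists stood apart in the same libraries. The 5 markers of basal forebrain cholinergic neurons, cells of another region beneath the cortex, summed to 118, 141 and 103.5 CPM in E61, E68 and E207, 85.5 in E249 and 53.6 in E59, and to between 0.953 and 5.46 in the other 15 libraries. Slc5a7 was the most abundant of them, none was at 0 in all libraries and 3 were at 0 in some. The 7 markers of inhibitory neurons summed to 1572, 1963 and 1936 CPM in E61, E68 and E207, 1780 in E249 and 1236 in E59, against 726 to 1045 in the other 15 libraries, with Gad1 the most abundant and none at 0. In the cholinergic, inhibitory and cortical excitatory lists E249 was thus close to those 3 KD females, while its striatal sum was lower than theirs. The 6 hippocampal markers summed to 120.4, 81.0 and 99.6 CPM in E61, E68 and E207 and to 58.3 in E227, all above the 24.1 to 45.7 of CD females. The 6 oligodendrocyte markers summed to 3810, 3821 and 3698 CPM in those 3 KD females and 3015 in E227, against 2512 to 3044 in CD females. The 5 endothelial markers summed to 260.3, 253.5 and 223.4 CPM in E61, E68 and E207, 272.1 in E249 and 240.6 in E265. In the other libraries that sum ran from 162.3 to 214.9 CPM, and none of the markers was at 0. In bulk tissue, fewer cells of a type and less RNA per cell cannot be told apart.

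Adenylyl cyclases make cAMP from ATP, most of them under the control of G proteins and some of them also of calcium and calmodulin. Phosphodiesterases break it down, except those specific for cyclic GMP. cAMP binds the regulatory subunits of PKA and frees the catalytic ones, which phosphorylate CREB. In neurons CREB, helped by coactivators, switches on genes that take part in lasting synaptic change and memory, while the Epac proteins respond to cAMP without PKA.

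None of the 42 genes differed between KD and CD females at a false discovery rate (FDR) of 0.1 with a fold change of at least 1.5, the thresholds of the study, when 7 of the 15660 genes tested did (0.0447%). At an unadjusted p under 0.05, 10 of the 42 differed (23.8%) against 11.4% of all genes tested. Of these, 6 were higher on KD (background 5.86%), namely Pde1c, Pde1b, Pde7b, Prkar2b, Adcy7 and Pde8b, and 4 were lower (background 5.5%), namely Pde1a, Adcy2, Adcy1 and Crem. The likelihood ratio test of edgeR called 3 of the 42 at the study's thresholds (1.4% of all genes) and DESeq2 called 2 (1.62% of all genes). The calls also turned on single mice, since 6 of the 42 passed without E249 (6.66% of all genes), 6 without E227 (5.68%) and 1 without E59 (0.245%). In males 0 of the 42 passed, as did 0 of all genes (0.0%), and 2 had an unadjusted p under 0.05 (4.76%, against 3.56% of all genes), Pde9a higher (background 2.37%) and Adcy2 lower (background 1.19%). The likelihood ratio test and DESeq2 called none of the 42 in males either. No gene of the 42 had KD and CD libraries that did not overlap, in females (2.1% of all genes tested) or in males (0.217%). The median log2 fold change over the 42 was 0.06 in females (23 above 0, where 52.7% of all tested genes were) and 0.01 in males (23 above 0, against 49.1% of all tested genes).

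**Figure D1:**
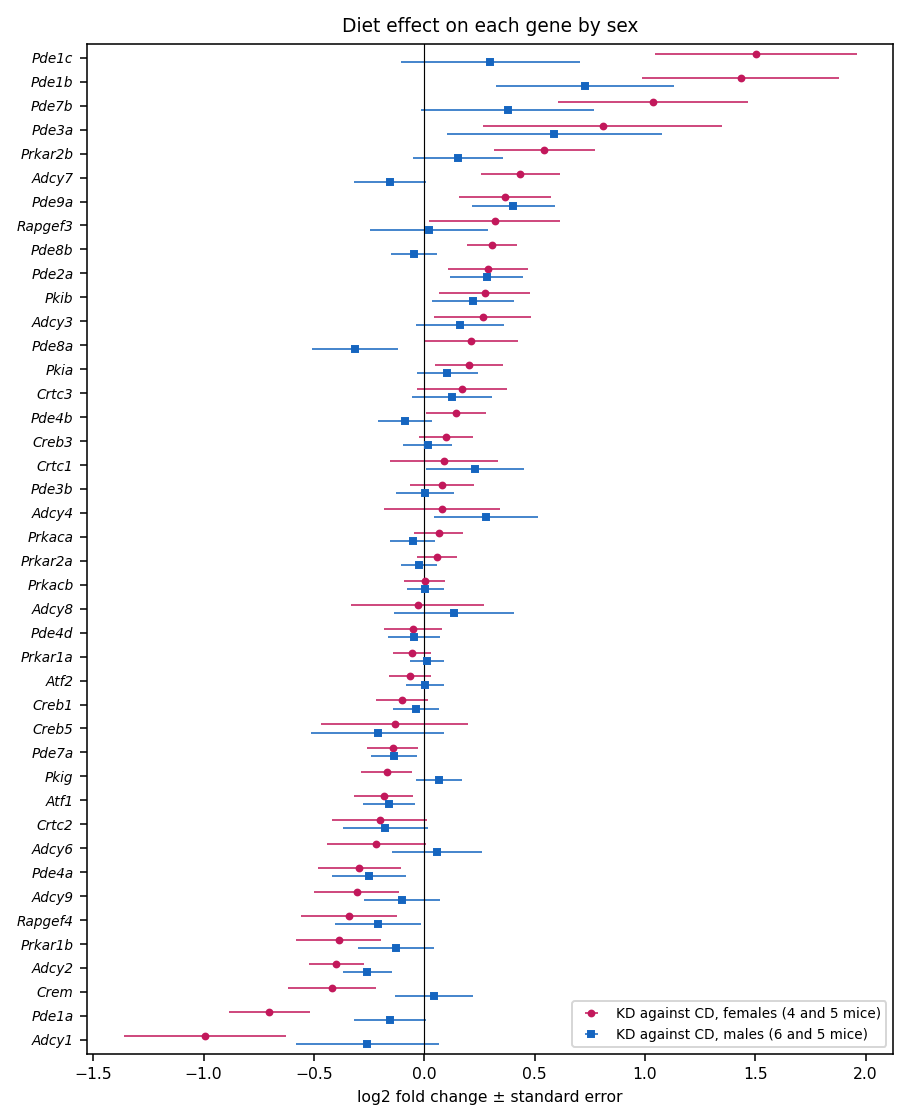
Log2 fold change of KD against CD with its standard error for each of the 42 genes, in females (circles) and males (squares), ordered by the value in females. The range was -0.99 (Adcy1) to 1.503 (Pde1c) in females and -0.31 (Pde8a) to 0.73 (Pde1b) in males, and none passed the test.

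Levels within each family were compared per length, as CPM per kb of the gene's annotated exons. The same gene led in all 20 libraries for Prkacb among catalytic subunits, Prkar1a among regulatory subunits, Pkia among inhibitors, Atf2 among CREB and ATF factors, Crtc1 among coactivators and Rapgef4 among Epac factors. Adcy1 led the cyclases in 16 libraries and Adcy2 in the other 4, E61, E68, E207 and E249. That change of lead rested on the exon lengths, 12522 bases for Adcy1 and 4211 for Adcy2. In CPM, Adcy1 stayed above Adcy2 in these 4, at 330, 339, 428 and 481 against 155, 159, 147 and 169. The length counts all annotated exons of a gene, and which transcripts were expressed was not examined. Pde1a led the phosphodiesterases in 16 and Pde1b in the other 4. Prkar1a had the highest mean of all 42 on this scale, 221 CPM per kb, and Creb5 the lowest, 0.0683.

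**Figure D2:**
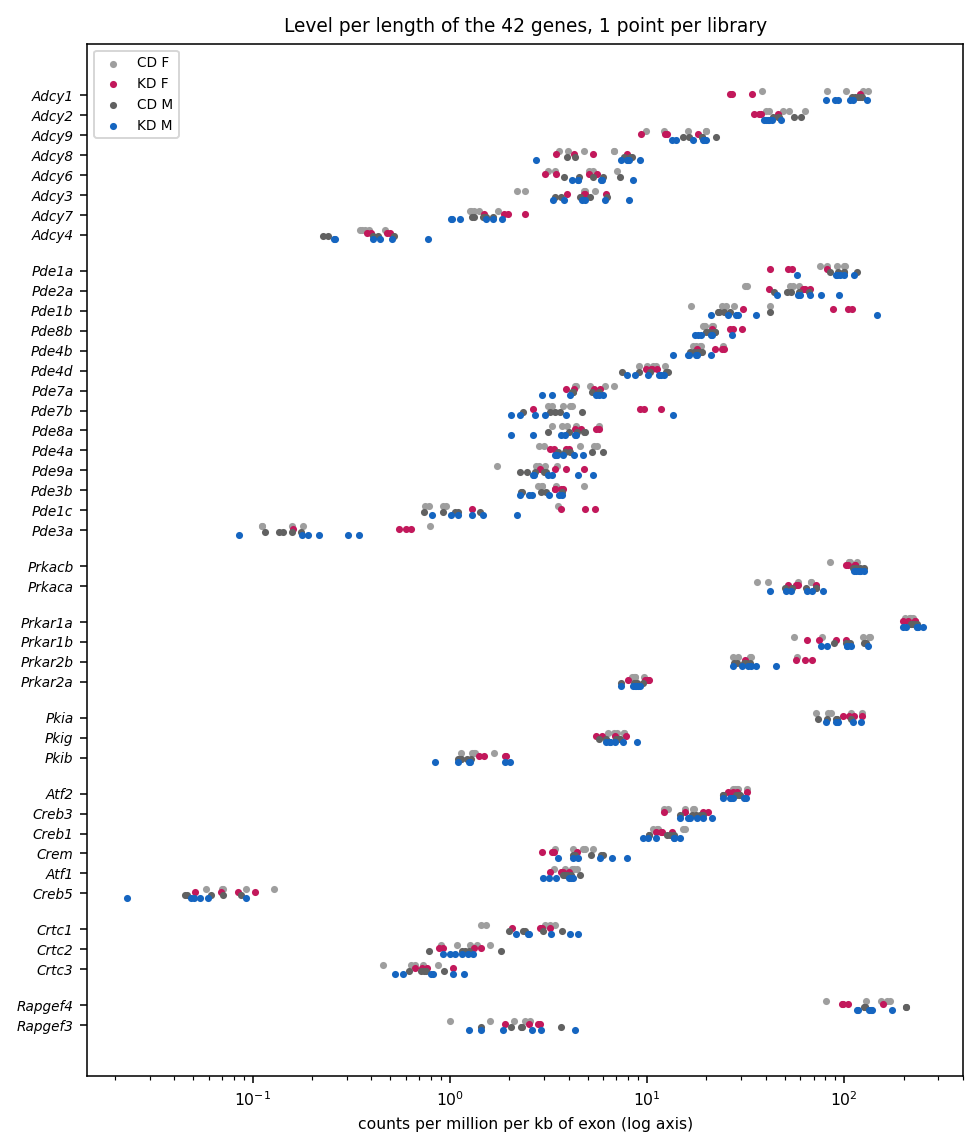
Level of each of the 42 genes in CPM per kb of exon on a log axis, with 1 point per library and a row of points per group, by family and in order of the mean within it. Levels ran from 0.0230 (Creb5) to 252 (Prkar1a). The coefficient of variation within groups was highest for Pde3a, Pde1b, Pde1c, Pde7b and Adcy1.

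The spread between mice of a group differed widely between isoforms. The coefficient of variation of the CPM, averaged over the 4 groups, had a median of 20.6% over the 42 genes. It was lowest for Prkar1a, at 5.39%, and highest for Pde3a (53.1%), Pde1b (52.2%), Pde1c (49.1%) and Pde7b (45.4%).

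Among the cyclases, Adcy1, Adcy2 and Adcy7 were the 3 of 8 with an unadjusted p under 0.05 in females, Adcy7 higher and the others lower, and the median log2 fold change of the 8 was -0.12. Adcy1 (chr11:7063489-7178506 in GRCm38), the calcium- and calmodulin-stimulated cyclase of cortical and hippocampal neurons, was at 481, 1026, 1278, 1559 and 1645 CPM in CD females. KD females were at 330.0, 339, 428 and 1514. Of these, 3 lay below every CD female, while E227 lay among the highest, and the lowest CD female was E249. The log2 fold change was -0.99 ± 0.37 (SE), with an adjusted p of 0.303 by edgeR's quasi-likelihood test and a two-sided exact permutation p of 0.103. Leaving out E227 gave -1.75 (adjusted p 0.00209) and leaving out E249 gave -1.23 (adjusted p 0.0333), and both of those passed. The value in females nearest 0 with 1 mouse left out was -0.773. CD males lay close together at 1376, 1428, 1467, 1507 and 1536 CPM, and KD males ran from 1017 to 1626 with a median of 1253, on both sides of the CD range. The log2 fold change in males was -0.26 ± 0.32 (adjusted p 0.9998).

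Adcy2 (chr13:68620043-68999541), a cyclase that G protein beta-gamma subunits stimulate, was the gene with an unadjusted p under 0.05 in both sexes. CD females were at 169, 174, 206, 222 and 266 CPM and KD females at 147, 155, 159 and 194. Again 3 KD females were below all CD females and E227 was not. In males the CD values were 183, 194, 197, 233 and 254.2 CPM, and KD males ran from 165 to 201 with a median of 174. KD males thus overlapped the lower CD males. KD against CD gave a log2 fold change of -0.40 ± 0.12 in females (adjusted p 0.230, exact permutation p 0.0794) and -0.26 ± 0.11 in males (adjusted p 0.9998, exact permutation p 0.0195). In females, -0.53 was found when E227 was dropped (adjusted p 0.0227) and -0.45 when E249 was (adjusted p 0.0430), in both cases under 1.5-fold. Over all omissions of 1 mouse, females ran from -0.53 to -0.31.

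Adcy7, a cyclase known from blood and immune cells and from microglia in brain, was at 8.57, 8.59, 8.97, 9.49 and 11.9 CPM in CD females and at 10.0, 12.7, 13.2 and 16.2 in KD females. All KD females but E227 were above E249, the highest CD female. CD males were at 8.73, 8.95, 9.88, 10.3 and 11.1 CPM and KD males ran from 6.84 to 12.3 with a median of 8.88. The groups overlapped when all males were taken, and the difference ran in opposite directions in the 2 library series. In series 1 KD males were at 6.84, 6.89 and 7.55 CPM and CD males at 8.95, 10.3 and 11.1, with a log2 fold change of -0.55 ± 0.15 (adjusted p 0.704). In series 2 KD males were at 10.2, 11.1 and 12.3 and CD males at 8.73 and 9.88, with 0.28 ± 0.21. Neither passed the thresholds. Adcy7 thus had a log2 fold change of 0.43 ± 0.18 among females (adjusted p 0.357, exact permutation p 0.0317) and -0.15 ± 0.16 in males (adjusted p 0.9998). The summed level of 6 microglial markers was 341 to 444 CPM in E61, E68 and E207, 316 in E227 and 261 to 362 in CD females, with none of the 6 at 0, and its part in the Adcy7 values was not tested.

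None of the other 5 cyclases had an unadjusted p under 0.05 in either sex. Adcy9, a widely expressed cyclase, averaged 16.3 CPM per kb over all libraries and had log2 fold changes of -0.31 ± 0.19 in females and -0.10 ± 0.17 in males. Adcy8, the second calcium-stimulated cyclase of brain, Adcy6, which calcium inhibits, and Adcy3, the cyclase of neuronal cilia and olfactory neurons, averaged 6.13, 5.07 and 4.66 CPM per kb, and their order changed from library to library. Their log2 fold changes in females were -0.03 for Adcy8, -0.22 for Adcy6 and 0.26 for Adcy3, each with a standard error of at least 0.22. Exons of Adcy3 overlap those of Cenpo on the opposite strand. The libraries were stranded but the strand counted is not given in the sources used here, so that the counts of Adcy3 are uncertain. Adcy4 was the least abundant at 0.409 CPM per kb, with log2 fold changes of 0.08 ± 0.26 in females and 0.28 ± 0.24 in males.

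The 14 phosphodiesterases held 5 of the 10 genes with an unadjusted p under 0.05 in females, and 3 of these were the calcium- and calmodulin-dependent PDE1 genes, which hydrolyse both cAMP and cyclic GMP. Their values ran in opposite directions, with Pde1a lower and Pde1b and Pde1c higher in KD females. Pde1a (chr2:79834453-80129458) was at 455, 492, 556, 599 and 609 CPM in CD females and at 253, 311, 328 and 491 in KD females. Only E227 reached the CD range, and E249 was the lowest of that range. Among males, CD values were 509, 558, 597, 602 and 701 CPM, and KD values ran from 347 to 671 with a median of 565, the lowest being E59 and the other 5 lying between 545 and 671. The log2 fold change of Pde1a was -0.70 ± 0.18 in females (adjusted p 0.192, exact permutation p 0.0159) and -0.16 ± 0.16 in males (adjusted p 0.9998), or -0.37 in series 1 males and 0.15 in series 2 males. Dropping E227 gave -0.91 in females (adjusted p 0.00957), and dropping E249 gave -0.77 (adjusted p 0.0255). The value in females nearest 0 with 1 mouse dropped was -0.584.

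Pde1b (chr15:103503034-103530052), the PDE1 isoform of striatal and other dopamine-receiving neurons, was at 90.1, 130.1, 135, 149 and 226.998 CPM in CD females. KD females were at 165, 472, 567 and 591. The 3 high values were more than double that of any CD female, whereas E227 lay within the CD range. Males on CD were at 123, 126, 132, 142 and 226 CPM, and KD males ran from 114 to 789.8 with a median of 154. E59 held the 789.8, and the KD male next to it was at 193. For Pde1b the log2 fold change was 1.43 ± 0.45 in females (adjusted p 0.230, exact permutation p 0.0238) and 0.73 ± 0.41 in males (adjusted p 0.9998, exact permutation p 0.511). Without E59 the value in males was 0.05. Females gave 1.69 when E227 was left out (adjusted p 0.0441), 1.76 when E249 was (adjusted p 0.0309) and 1.506 when E59 was (adjusted p 0.0750), all 3 past the thresholds. The lowest value in females with 1 mouse left out was 1.016.

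Pde1c (chr6:56069804-56569103), an isoform of high affinity for both cyclic nucleotides, was at 14.955, 15.7, 18.5, 19.2 and 71.3 CPM in CD females and at 26.0, 73.8, 97.7 and 109 in KD females. E249 held the 71.3 and E227 the 26.0. Every KD female was thus above the CD females other than E249. On CD, males were at 14.8, 18.6, 21.3, 22.2 and 28.5 CPM, and KD males ran from 16.2 to 44.2 with a median of 24.0, E59 being the highest. The fitted log2 difference was 1.503 ± 0.46 in females (adjusted p 0.229, exact permutation p 0.0556) and 0.30 ± 0.41 in males (adjusted p 0.9998). Females stood at 2.12 once E249 was left out (adjusted p 0.00704) and at 1.87 once E227 was (adjusted p 0.0165), while males stood at -0.01 once E59 was. Over all omissions of 1 mouse, females ran from 1.302 to 2.119.

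**Figure D3:**
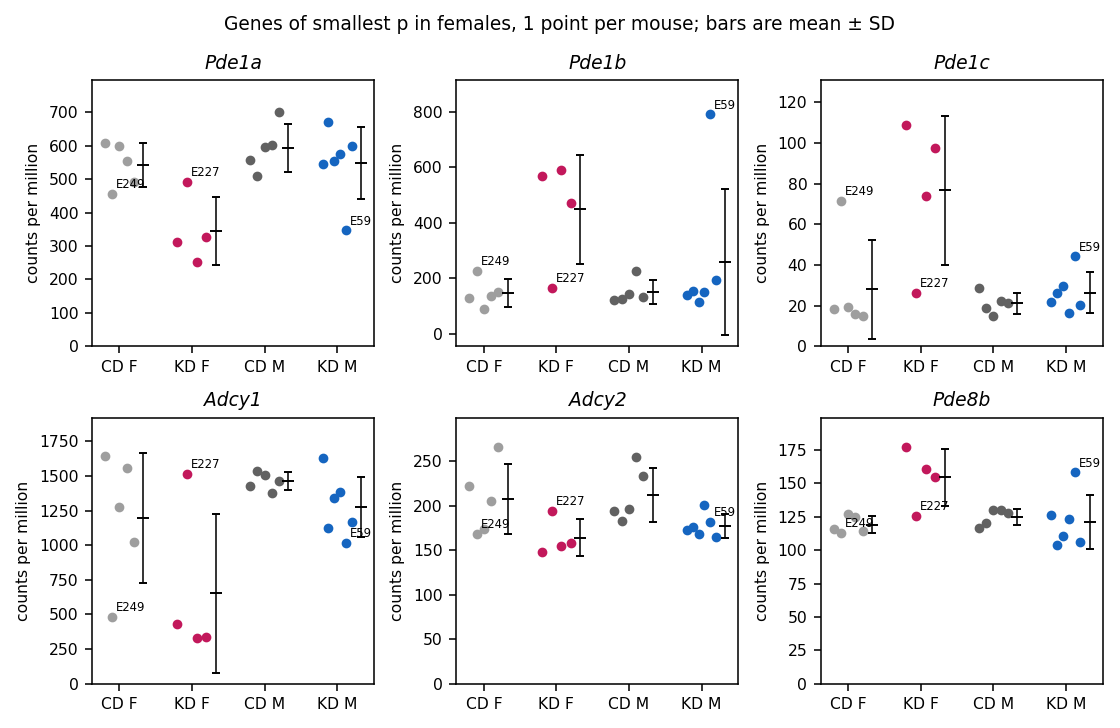
CPM of Pde1a, Pde1b, Pde1c, Adcy1, Adcy2 and Pde8b, the 6 genes of smallest p in females, with 1 point per mouse on linear axes; the bars give the mean and SD of each group, and E227, E249 and E59 are named. For Pde1b, 3 KD females and E59 were at 472 to 789.8 CPM, above all the other mice.

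The make-up of the PDE1 sum varied between mice along with these opposite values of Pde1a and Pde1b. Per length, Pde1b made up 70.5%, 59.5% and 64.7% of the PDE1 sum in E61, E68 and E207, 27.0% in E227 and 14.2% to 34.7% in CD females, where E249 was the highest. In males the share was 17.2% to 29.3% on CD, with E58 the highest, and 18.5% to 26.2% on KD apart from E59, in which it was 71.0%. Pde1c never exceeded 3.35% of the sum per length, with 20067 bases of annotated exon against 6012 for Pde1a and 5396 for Pde1b. Its share thus depended on the length used. In CPM, Pde1c was at 109 in E207, beside 311 for Pde1a and 567 for Pde1b. The sum itself averaged 119 ± 5.87 CPM per kb (SD, n = 5) in CD females, 144 ± 21.5 (n = 4) in KD females, 127 ± 15.1 (n = 5) in CD males and 140.3 ± 34.0 (n = 6) in KD males.

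**Figure D4:**
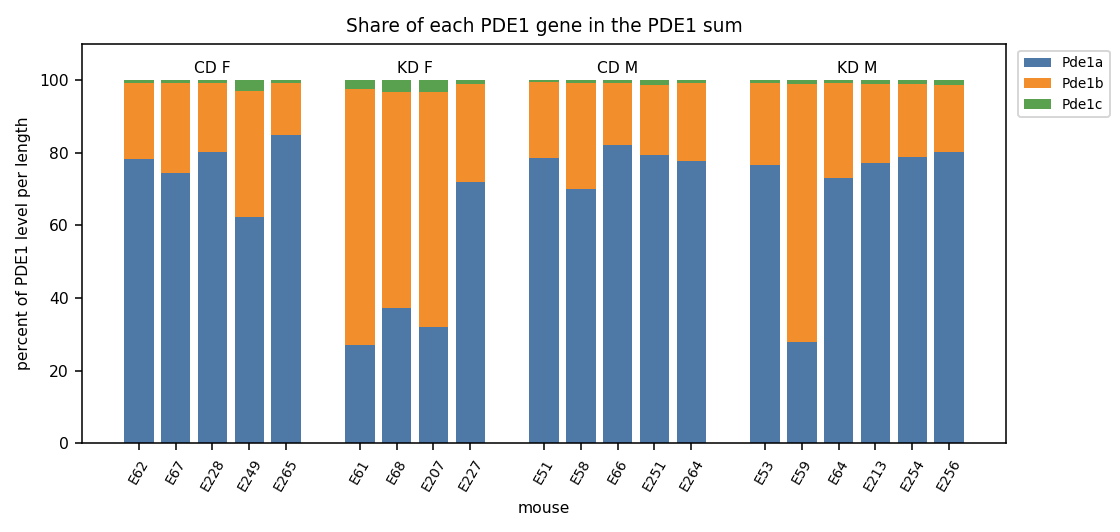
Share of Pde1a, Pde1b and Pde1c in the summed PDE1 level per length, with 1 bar per mouse in its group. Pde1b made up 59.5% to 71.0% in KD females E61, E68 and E207 and KD male E59, and at most 34.7% in the other 16 mice.

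The 4 libraries in which Pde1b led were the 4 with the highest sums of striatal markers, and E249 was next to them in that sum. All 17 of those markers were higher in KD than in CD females, 13 of them at an unadjusted p under 0.05, with a median log2 fold change of 2.12, and the fitted values were also above 0 for all 17 in males, 1 at that p, with a median of 1.42. In males this rested on E59: by mean log2 CPM, 15 of the 17 were higher on KD with a median difference of 0.30, and without E59 3 of the 17 were, with a median of -0.24. All 9 markers of cortical excitatory neurons had lower means in females on KD, 5 with an unadjusted p below 0.05, the median being -0.93, and all 9 were lower in KD males, none at that p, with a median of -0.21. In E59 the 7 choroid plexus markers also summed to 2363 CPM, against 14.2 to 62.3 in all other libraries, with Ttr the most abundant at up to 2187 CPM. The part of these cell types in the values of the 42 genes was not tested. The mean z-score of the 17 striatal markers, Adcy5 and Pde10a among them, was 1.636, 1.465 and 1.722 in E61, E68 and E207. It was -0.424 in E227 and ran from -0.877 to 0.677 in CD females. In females this score thus largely went with diet, and a model holding both cannot cleanly separate them. When the mean z-score of the striatal markers was a covariate of the model, the log2 fold changes in females were 0.18 for Pde1b, 0.40 for Pde1c, -0.22 for Pde7b, 0.02 for Prkar2b, -0.38 for Adcy1, -0.30 for Adcy2, -0.34 for Pde1a, 0.32 for Adcy7, 0.09 for Pde8b and -0.11 for Crem, and 0 genes in all passed the thresholds. In that model 2 of the 42 had an unadjusted p under 0.05 in females (4.76%, against 5.24% of all genes), Pde1a and Adcy8, the latter at 0.80 ± 0.20 (adjusted p 0.695) against -0.03 without the covariate. In males 3 did (7.14%, against 4.36% of all genes), with Adcy2 at -0.24, Pde1b at 0.28 and Pde8a at -0.37 (adjusted p 0.999 each).

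**Figure D5:**
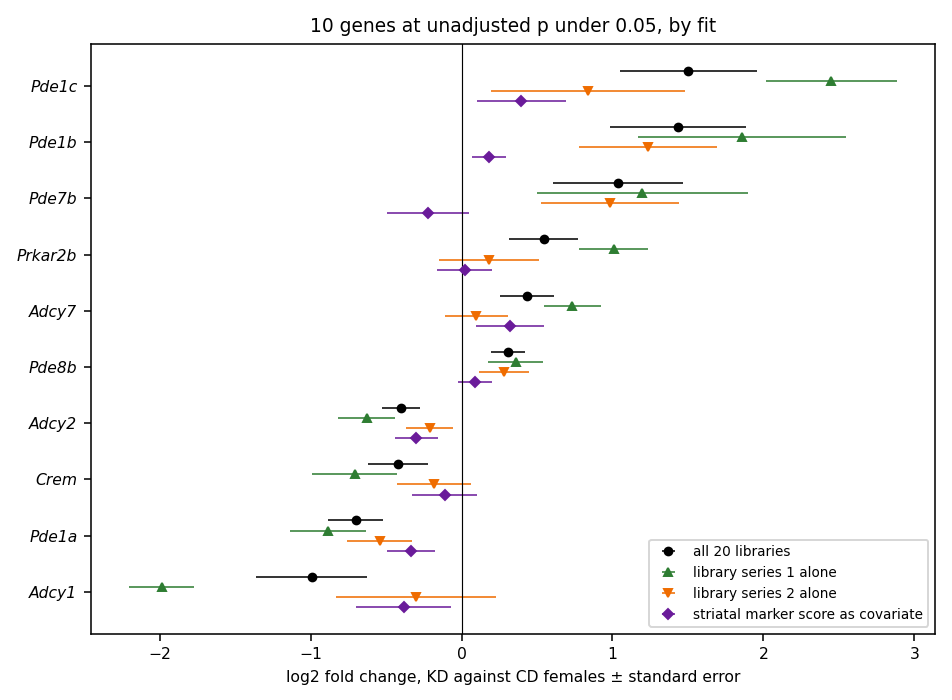
Log2 fold change in females with its standard error for the 10 genes with an unadjusted p under 0.05, in the model of all 20 libraries, in each library series alone, and with the score of striatal markers as covariate. Pde1a was below 0 in all 4, at -0.70, -0.89, -0.54 and -0.34, and Pde1b was above 0 in all 4, at 1.43, 1.86, 1.24 and 0.18.

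Pde8b and Pde7b, of the cAMP-specific families with high affinity, were the other phosphodiesterases with an unadjusted p under 0.05 in females. Pde8b (chr13:95024454-95250336) was at 113, 114, 116, 125 and 127 CPM in CD females and at 126, 155, 161 and 177 in KD females. E227 alone, at 126, did not exceed the CD range. Males of the CD group were at 117, 121, 128, 129.7 and 129.8 CPM and KD males ran from 104 to 158 with a median of 117.0, E59 being the highest. Pde8b had a log2 fold change of 0.31 ± 0.11 in KD against CD females (adjusted p 0.303, exact permutation p 0.0159) and -0.05 ± 0.10 in males (adjusted p 0.9998), under 1.5-fold in either sex. With 1 mouse left out, the value of Pde8b in females ran from 0.199 to 0.389. Pde7b averaged 45.9 ± 5.82 CPM (SD, n = 5) in CD females and 103 ± 49.2 (n = 4) in KD females, where E227 was lowest at 32.95 and the others at 114 to 147. Pde7b stood at a log2 fold change of 1.04 ± 0.43 in females (adjusted p 0.364, and 1.32 with an adjusted p of 0.0889 without E227) and 0.38 ± 0.39 in males, or -0.26 without E59, which was at 169 CPM.

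Pde9a (chr17:31386210-31476310), specific for cyclic GMP, was the gene of the 42 with an unadjusted p under 0.05 and a higher level in KD males. CD males were at 8.06, 8.73, 9.52, 10.6 and 10.9 CPM, and KD males ran from 9.34 to 18.7 with a median of 11.4. CD females were at 6.12, 9.66, 10.0, 10.7 and 12.4 CPM and KD females at 10.1, 12.0, 13.8 and 17.01. Above all CD mice of their sex were KD males E64, E254, E59 and E53 and KD females E61 and E207, and the rest overlapped. Pde9a had a log2 fold change of 0.40 ± 0.19 in males (adjusted p 0.9998, exact permutation p 0.0974) and 0.37 ± 0.21 in females (adjusted p 0.547, exact permutation p 0.0952), and it was 0.43 in males without E59. In E64 and E254, the males with the highest Pde9a, the 6 oligodendrocyte markers summed to 1296 and 1432 CPM, against 2236 to 4007 in the other 9 males. The 6 hippocampal markers, led by Wfs1, summed to 197 CPM in E64 and 53.5 in E254, against 21.1 to 57.4 in the other males. In KD against CD males, by mean log2 CPM, all 6 hippocampal markers were higher (median 0.54, or 0.73 without E59) and all 6 oligodendrocyte markers lower (median -0.45, or -0.61 without E59), none of the 12 was at 0 in any library, and their part in the Pde9a values was not tested.

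The remaining phosphodiesterases did not pass an unadjusted p of 0.05 in either sex. Pde2a, which cyclic GMP activates, was the second most abundant on average at 56.9 CPM per kb, and its log2 fold changes were 0.29 ± 0.18 in females and 0.28 ± 0.16 in males. The PDE4 genes encode the cAMP-specific enzymes that rolipram inhibits. Pde4b averaged 18.9 CPM per kb, Pde4d 10.5 and Pde4a 4.08, with log2 fold changes in females of 0.14 ± 0.14, -0.05 ± 0.13 and -0.29 ± 0.19, and in males of -0.09 ± 0.12, -0.04 ± 0.12 and -0.25 ± 0.17. Pde7a and Pde8a averaged 4.85 and 4.16 CPM per kb. Pde7a was at -0.14 ± 0.11 in females and -0.14 ± 0.10 in males, and Pde8a at 0.21 ± 0.21 and -0.31 ± 0.19. Of the PDE3 genes, which cyclic GMP inhibits, Pde3b averaged 3.17 CPM per kb with log2 fold changes of 0.08 ± 0.15 and 0.00 ± 0.13. Pde3a averaged 0.268 CPM per kb with 0.81 ± 0.54 in females and 0.59 ± 0.49 in males. It was at 10.2 CPM in E249 against 1.41 to 2.30 in the other CD females, and at 2.03 in E227 against 7.06 to 8.08 in the other KD females. Without E249 the value in females was 1.71 (adjusted p 0.0184), past the thresholds.

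Of the PKA subunits, Prkar1a, Prkacb and Prkar2a varied little between mice of a group, with coefficients of variation of 5.39%, 6.6% and 8.24%, while Prkaca was at 19.8% and Prkar1b and Prkar2b at 22.5% each. Prkacb (chr3:146729574-146812990), the catalytic subunit beta, was at 740.1, 928, 931, 939 and 1019.5 CPM in CD females and at 894, 921, 992 and 998 in KD females. In males, CD values were 968, 989.8, 1007, 1054 and 1104 CPM and KD values ran from 980.0 to 1111 with a median of 1047. The groups overlapped throughout, and E249 was the single low library. The log2 fold change was 0.00 ± 0.09 in females (adjusted p 0.9986) and 0.01 ± 0.08 in males (adjusted p 0.9998), and in females the sign turned with the scaling, to -0.005 with TMM and -0.012 with DESeq2's size factors. Prkaca, the catalytic subunit alpha, averaged 59.02 CPM per kb against 112 for Prkacb and had log2 fold changes of 0.07 ± 0.11 and -0.05 ± 0.10.

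Prkar1a (chr11:109649405-109669656), the regulatory subunit RI alpha, was at 884, 928, 928, 935 and 971 CPM in CD females, at 861, 907, 983 and 988 in KD females and at 939, 947, 963, 965 and 1010.2 in CD males, and ran from 862 to 1089.6 with a median of 1010.4 in KD males. These values overlapped fully between diets, with log2 fold changes of -0.05 ± 0.08 in females (adjusted p 0.9004) and 0.01 ± 0.08 in males (adjusted p 0.9998). Prkar2b, the RII beta subunit of neurons and fat, was the regulatory subunit with an unadjusted p under 0.05 in females. It averaged 132 ± 45.1 CPM (SD, n = 5) in CD and 201 ± 60.2 (n = 4) in KD females, with E249 at 211 among the former and E227 at 115 among the latter. The log2 fold change of Prkar2b was 0.54 ± 0.23 in females (adjusted p 0.365), 0.76 without E227 (adjusted p 0.0481) and 0.78 without E249 (adjusted p 0.0288), and 0.15 ± 0.20 in males. Per length, Prkar2b made up 14.7% to 18.5% of the 4 regulatory subunits in E61, E68 and E207, 17.04% in E249, 12.7% in E59 and 7.14% to 9.95% in the other 15 mice. Prkar1b, the neuronal RI beta, averaged 101 CPM per kb with -0.39 ± 0.19 in females and -0.13 ± 0.17 in males, and Prkar2a 8.83 with 0.06 ± 0.09 and -0.02 ± 0.08.

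The PKA inhibitors are small proteins that block the free catalytic subunit. Pkia (chr3:7366669-7445366) made up between 89.7% and 94.1% of the 3 per length. It was at 269, 309, 318, 404 and 457 CPM in CD females, at 367, 394, 419 and 461 in KD females and at 275, 303, 339.7, 341 and 402 in CD males, and ran from 299.9 to 453 with a median of 344 in KD males. The groups overlapped, and the log2 fold change was 0.20 ± 0.15 in females (adjusted p 0.702, exact permutation p 0.183), or 0.545 in series 1 and -0.11 in series 2, and 0.10 ± 0.14 in males (adjusted p 0.9998). Pkig averaged 6.87 CPM per kb with -0.17 ± 0.12 in females and 0.07 ± 0.10 in males, and Pkib averaged 1.39 with 0.27 ± 0.21 and 0.22 ± 0.19.

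Creb1 (chr1:64532645-64604548), which encodes CREB, showed no difference between diets beyond the spread of the mice. It was at 148, 154, 156, 209.7 and 213.15 CPM in CD females and at 153, 162, 163 and 185 in KD females. Males were at 140.1, 141, 173, 179 and 188.5 CPM on CD and ran from 130.9 to 203 with a median of 170.2 on KD. Every KD female lay inside the CD range. The Creb1 difference on the log2 scale was -0.10 ± 0.12 in females (adjusted p 0.8415, exact permutation p 0.611) and -0.04 ± 0.11 in males (adjusted p 0.9998, exact permutation p 0.939). These values are of RNA and say nothing of the phosphorylation by which CREB is switched on.

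Atf2 (chr2:73816509-73892639), a stress-responsive factor that binds the same element, was the most abundant of its family per length, at 38.9% to 49.8% of the 6. It was at 225, 229, 233, 237 and 263 CPM in CD females, at 212, 223, 233 and 264.7 in KD females and at 199.8, 199.97, 231, 239 and 242 in CD males, and ran from 198.5 to 260.2 with a median of 220.4 in KD males, with log2 fold changes of -0.07 ± 0.10 (adjusted p 0.8882) and 0.01 ± 0.09 (adjusted p 0.9998). All groups overlapped. Crem, whose products include cAMP-induced repressors, was the member of this family with an unadjusted p under 0.05 in females, with 26.6 ± 4.29 CPM (SD, n = 5) in CD and 20.7 ± 3.79 (n = 4) in KD females. Crem stood at -0.42 ± 0.20 on the log2 scale among females (adjusted p 0.435) and at 0.04 ± 0.18 among males. Its exons overlap Gm6225 on the opposite strand, with the same uncertainty as in Adcy3. Creb3, a membrane-bound factor of the endoplasmic reticulum whose exons overlap Gba2 and Tln1 on the opposite strand, averaged 16.8 CPM per kb with 0.10 ± 0.12 and 0.02 ± 0.11. Atf1, the closest relative of Creb1, averaged 3.85 with -0.18 ± 0.13 and -0.16 ± 0.12, and Creb5 was near the lower end of what was counted, with -0.13 ± 0.33 and -0.21 ± 0.30.

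The letters that CREB recognises, TGACGTCA or its shorter form TGACGT, were searched on both strands in RefSeq promoters of build GRCm38.p6, from 250 bases before to 50 after each gene's start. An entry was found for 33 of the 42 genes. TGACGT, read as ACGTCA on the other strand and contained in TGACGTCA, stood in at least 1 promoter of 6 of the 33 genes (18.2%), against 8.37% of 27025 genes. The 33 genes had more entries per gene than all genes had, and per promoter TGACGT stood in 7 of their 73 (9.59%), against 7.51% of all 32851. The full TGACGTCA stood in 3 of the 73 promoters, from 2 of the 33 genes, against 1.79% of all promoters and 2.03% of all genes. The matches are printed to show which genes of the pathway carry these letters, each within 30 bases on the strand of its gene with the letters in capitals.
Prkar1a, chr11:109650889-109650918, + strand: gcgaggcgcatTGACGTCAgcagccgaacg
Creb5, chr6:53287247-53287276, + strand: ggaatcccacgTGACGTCAccgggggggtg
Adcy9, chr16:4420505-4420534, - strand: cggacccggcggTGACGTgcgcgggccgcg
Rapgef3, chr15:97767840-97767869, - strand: gcttgaacccacTGACGTagtctcgggtag
Pde4a, chr9:21184038-21184067, + strand: tggcacagctcgACGTCAggctggggagga
Pde4b, chr4:102421508-102421537, + strand: tgatttggctgcACGTCAattttctcatct
In Prkar1a the same match lay in 2 promoters, 49 bases before one RefSeq start and 39 after another. It began 45 bases before the start in Creb5, 24 in Adcy9, 191 in Rapgef3, 51 in Pde4a and 35 in Pde4b. Of the 10 genes with an unadjusted p under 0.05 in females, 9 had an entry and 0 of these held TGACGT in the window, while 3 of them (Adcy7, Pde1a and Pde8b) held its first 5 letters, TGACG. These letters, which read CGTCA on the other strand, stood in 17 of the 33 genes (51.5%), against 23.05% of all genes, and in 19 of the 73 promoters (26.0%), against 20.81% of all promoters. The log2 fold changes in females of the 6 genes with TGACGT ran from -0.31 (Adcy9) to 0.32 (Rapgef3), with adjusted p-values from 0.605 to 0.948.

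The CRTC coactivators bind CREB at its DNA-binding domain once they are dephosphorylated. Crtc1 (chr8:70382355-70439579), the form of neurons, was at 16.1, 16.995, 33.8, 36.0 and 38.0 CPM in CD females, at 23.2, 31.9, 32.96 and 35.9 in KD females and at 22.4, 26.3, 26.9, 33.1 and 41.4 in CD males, and ran from 24.3 to 49.7 with a median of 32.3 in KD males. The groups overlapped throughout, the 2 lowest values being those of CD females E249 and E265. The Crtc1 difference on the log2 scale was 0.09 ± 0.24 in females (adjusted p 0.9538) and 0.23 ± 0.22 in males (adjusted p 0.9998). In females it was -0.40 in series 1 alone and 0.49 in series 2 alone. Crtc2 and Crtc3 averaged 1.18 and 0.763 CPM per kb, with log2 fold changes of -0.20 ± 0.22 and 0.17 ± 0.20 in females and -0.18 ± 0.19 and 0.13 ± 0.18 in males.

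Rapgef4 (chr2:71981240-72257474), the Epac2 gene of neurons and endocrine cells, made up at least 96.4% of the 2 Epac genes per length in every library. It was at 537, 862, 1028, 1100.5 and 1135 CPM in CD females, at 652, 657, 700.4 and 1053 in KD females and at 839, 849.9, 853, 1373 and 1377.5 in CD males, and ran from 777 to 1172 with a median of 900.5 in KD males. E227 was the highest KD female and E249 the lowest CD female, and the groups overlapped. The Rapgef4 difference on the log2 scale was -0.34 ± 0.22 in females (adjusted p 0.608, exact permutation p 0.317; -0.59 without E227) and -0.21 ± 0.20 in males (adjusted p 0.9998). Rapgef3, the Epac1 gene, averaged 2.30 CPM per kb with 0.32 ± 0.30 in females and 0.02 ± 0.27 in males.

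Whether the diet acted differently in the sexes was tested as an interaction, the log2 fold change in females minus that in males. None of the 42 passed the thresholds, nor did any gene tested (0.0%). At an unadjusted p under 0.05 stood 3 of the 42 (7.14%), against 2.14% of all genes, namely Adcy7 at 0.59 ± 0.25, Pde1a at -0.54 ± 0.24 and Pde8b at 0.36 ± 0.15, each with an adjusted p of 0.9999. The interaction of Adcy7 was 1.29 in library series 1 alone (adjusted p 0.147) and -0.18 in series 2 alone, on the other side of 0. In series 1 alone 1 of the 42 passed the thresholds, Adcy1 at -1.66 ± 0.27 (adjusted p 0.0954), where 0.0877% of all genes did, and in series 2 alone it was at -0.18 ± 0.745. Both KD females of series 1, E61 and E68, were high in striatal markers and its CD females were not. Pde1c, with 1.20 ± 0.61, was further from 0 but less precise. On CD, 0 of the 42 differed between females and males at the thresholds (0.0383% of all genes) or at an unadjusted p under 0.05 (2.41% of all genes), and the log2 differences of females against males ran from -0.34 to 0.88, the latter for Pde3a with a standard error of 0.53.

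Between the library series, 0 of the 42 passed the thresholds, when 7.24% of all genes did, and 7 of the 42 (16.7%) passed an FDR of 0.1 without a fold threshold, against 33.2% of all genes. In series 2, Pde7a, Pde3b, Creb1, Pde4d and Atf2 were higher, by 0.57, 0.38, 0.36, 0.28 and 0.19 on the log2 scale, and Prkaca and Adcy3 were lower, at -0.41 each. The CD females with the highest Creb1, E265 and E249, were series 2 libraries. With each series taken alone, 8 of the 42 (19.0%) passed the thresholds in females in series 1 (2 CD and 2 KD mice), where 5.42% of all genes did, namely Adcy1, Adcy7, Adcy9, Pde1a, Pde1c, Pde3a, Prkar1b and Prkar2b, and 0 in series 2 (3 CD and 2 KD mice), where no gene did, the series with E249 and E227. In series 1 the KD females were E61 and E68, with striatal marker sums of 3344 and 2984 CPM. The CD females there were E62 and E67, at 464.6 and 475.8 CPM. Diet and the striatal sum thus cannot be told apart in females of series 1.

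A further 54 genes of the pathway, among them G proteins, anchoring proteins, effectors and other factors, were followed as a list, of which 53 were tested. In females 8 were higher (background 5.86%) and 8 lower (background 5.5%) at an unadjusted p under 0.05 and none passed the thresholds, with a median log2 fold change of -0.02. In males 2 were higher (background 2.37%) and 1 lower (background 1.19%) at that p and none passed, with a median of 0.01. The higher genes of smallest p in females were Adcy5, the main cyclase of striatal neurons (1.63 ± 0.49), Arpp21, a PKA substrate of striatal and other neurons whose exons overlap 2900079G21Rik on the opposite strand (0.76 ± 0.23), and Akap5, which anchors PKA at synapses (0.55 ± 0.17), each with an adjusted p of 0.226. Adcy5 was at 332, 203 and 324 CPM in E61, E68 and E207, but at 70.2 in E227, against 29.3 to 87.1 in CD females. KD male E59 was at 402.5 CPM. For Arpp21 and Akap5 too, E227 lay within the range of CD females. With 1 mouse left out, the values in females ran from 0.983 to 1.903 for Adcy5, 0.635 to 0.952 for Arpp21 and 0.343 to 0.706 for Akap5. The lower ones included Pde5a and Adcy10. Pde5a (chr3:122728947-122859374), a phosphodiesterase specific for cyclic GMP whose exons overlap 4930447N08Rik on the opposite strand, was at 33.1, 36.5, 39.2, 40.8 and 46.1 CPM in CD females and at 18.5, 19.3, 27.0 and 31.6 in KD females. These groups did not overlap, and E227 was the highest of the KD females. Pde5a had a log2 fold change of -0.74 ± 0.15 among females (adjusted p 0.1225, exact permutation p 0.00794, the smallest that 126 splits can give) and -0.16 ± 0.13 in males (adjusted p 0.9998), where CD mice were at 31.8, 36.6, 38.1, 39.2 and 43.5 CPM and KD mice ran from 31.5 to 38.6 with a median of 34.2. Adcy10, the soluble cyclase, was at -1.63 ± 0.53 on the log2 scale in females (adjusted p 0.241) at levels of 0.466 to 5.80 CPM.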

How the data were processed

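The authors aligned the reads, 50-bp pairs of stranded total RNA libraries, to mm10 with STAR and deposited raw counts of reads per gene, 1 table per mouse. The STAR version, the gene annotation and the strand counted were not given in the sources used here. Groups came from the sample labels, whose SD is the CD of the study, and library numbers gave the series. CPM were computed from the deposited counts. Of the 23413 gene names, 21735 matched GENCODE vM21 (GRCm38), which gave coordinates and exon lengths.

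Genes passing filterByExpr (15660) were tested in R 4.3.3 with edgeR 4.0.16: upper-quartile scaling, a model of 4 groups and library series over all 20 libraries, and the quasi-likelihood F test with robust dispersions and Benjamini-Hochberg adjustment. The study's RUVg factors were replaced by the library series, since their number is not stated, and served as an alternative written anew. Single genes were also tested with a two-sided exact permutation test of mean log2 CPM (prior count 2), over 126 splits of the females and 462 of the males, for 21 genes in each sex, without adjustment. The smallest p that these splits can give is 0.00794 in females and 0.00216 in males. Mean ± SD is over mice, and ± after a log2 fold change is its standard error.

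Given in full were up to 6 of the 42 genes of smallest p in each sex and up to 3 in the interaction and between CD sexes, all at an unadjusted p under 0.05, Creb1, the gene of highest level per length in each family, and up to 3 higher and 3 lower pathway genes, of which 1 is not reported here. Crem, Pde7b, Prkar2b and Pde3a were described further after their values were seen. The members, lists and tests were chosen with earlier results of these data known. Alternatives were TMM, DESeq2 1.42.0 (size factors and Wald test), other filters, no series term, RUVg with 1 or 2 factors (5000 genes left out of the controls), each sex or series alone, the striatal marker score as a covariate, the likelihood ratio test, an FDR of 0.05, and leaving out each mouse; the marker lists in males without E59 were added after seeing the data. On counts simulated for KD against CD females, 66.5% of 200 genes changed 2-fold were recovered, with 14 unchanged genes called, 84.5% at 3-fold with 21, and 0 were called with no change simulated, among 15531, 15516 and 15528 genes. Whether these rates hold for the measured libraries was not tested. With 1 mouse left out, 0 to 1046 genes passed there in females. Any 2 libraries of a group differed by more than sampling noise.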

Additional observations from a re-analysis of the deposited data

Results flagged for a closer look

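Within a group, the highest or lowest mouse can lie far from all others. The gap to the nearest mouse was taken as a fraction of the group's range, both on a log scale of CPM. It was past Dixon's limit in 14 of 168 groups of the 42 genes, or 8.33%, against 5.2% of the 62640 groups of all genes tested. Chance alone flags about 1 in 20. Groups of different genes share the same 20 libraries. KD male E59 accounted for 5, CD female E249 for 4, KD female E227 for 3, and CD male E58 and KD female E68 for 1 each. Over all genes, E249 held 20.9% of such values, E227 14.4% and E59 8.08%.

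The gap fractions in brackets are on the log scale, beside CPM on the linear scale. In E59, Adcy8 was lowest at 22.2 CPM with the next at 60.4 (gap fraction 0.822), Pde1a lowest at 347 with the next at 545 (0.684), and Prkar2a lowest at 47.1 with the next at 54.2 (0.64). Pde1b was highest there at 789.8 with the next at 193 (0.729), and Pde7b highest at 169 with the next at 48.3 (0.659). In E249, Pde1c was highest at 71.3 with the next at 19.2 (0.84), Pde3a at 10.2 with the next at 2.30 (0.758), Pde4b at 255 with the next at 198 (0.73) and Prkar2b at 211 with the next at 123 (0.72). In E227, Pde3a was lowest at 2.03 with the next at 7.06 (0.902) and Pde7b lowest at 32.95 with the next at 114 (0.829), while Rapgef4 was highest at 1053 with the next at 700.4 (0.85). Pde1b was highest in E58 at 226 with the next at 142 (0.767), and Pde2a lowest in E68 at 257 with the next at 381 (0.84).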

How the results depend on the processing

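No paired analysis was possible because each animal number occurs in 1 group only. The causes of the differences between settings given here were not tested.

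Genes passing in females numbered 7 in the model as reported, 12 without the low-count filter, 4 without the series term, 21 and 267 with 1 and 2 RUVg factors, 1 with each sex alone, 865 and 0 with series 1 and series 2 alone, 0 with the striatal covariate, 220 with the likelihood ratio test, 253 with DESeq2 and 1 at an FDR of 0.05, and 0 to 1046 when a mouse was left out. For the interaction 0 became 14 in series 1, Adcy1 among them, and 1 each with the likelihood ratio test and DESeq2 (0 to 41 without a mouse), and between CD sexes 6 became 1 with at least 10 counts in every library and 1 in series 2 (5 to 9). Males stayed at 0 in every setting.

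Of the 42 genes, those passing in females went from 0 to 2 with 2 RUVg factors and with DESeq2, 3 with the likelihood ratio test, 8 in series 1, and 0 to 6 when a mouse was left out, with 6 each without E249 and E227 and 1 without E59. Those at an unadjusted p under 0.05 went from 10 (11.4% of all genes) to 3 in series 2 (2.7%) and 2 with the striatal covariate (5.24%). They rose to 14 in series 1 (17.4%), and to 12 and 15 with 1 and 2 RUVg factors, for which the share of all genes is not given here. With a mouse left out they ran from 4 without E207 (6.77%) to 16 without E249 (18.7%). In males they went from 2 (3.56%) to 5 in series 1 (6.08%) and 0 in series 2 (0.311%), and ran from 0 without E58 (2.12%), E66 (2.29%) or E64 (1.51%) to 3 without E264 (4.39%). The median log2 fold change in females was -0.018 in series 1 and -0.006 in series 2, and 0.003 to 0.083 without a mouse. In males it was -0.031 in series 1 and -0.016 in series 2, and -0.02 to 0.016 without a mouse.

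The sign of some log2 fold changes turned. In females, Prkacb was at -0.005 with TMM, -0.012 with DESeq2's size factors or Wald test, -0.014 without the filter, -0.002 with females alone, and -0.001 without the series term and in each series. In series 1, females were at 0.021 for Creb1, 0.048 for Prkar1a and -0.399 for Crtc1, and males at -0.039 for Prkacb, -0.015 for Prkar1a and -0.044 for Atf2. In series 2, females were at -0.109 for Pkia, and males at 0.154 for Pde1a, 0.276 for Adcy7, 0.077 for Creb1, -0.015 for Crtc1 and 0.044 for Rapgef4, with the Adcy7 interaction at -0.177 against 0.588 in the model of all libraries. Creb1 in males was at 0.012 without the series term, and with the striatal covariate Prkar1a in females was at 0.021 and Atf2 in males at -0.002. Without 1 mouse, the signs turned within -0.063 to 0.065 (Prkacb), -0.109 to 0.009 (Atf2) and -0.046 to 0.241 (Crtc1) in females, and in males within -0.025 to 0.052 (Prkacb), -0.02 to 0.052 (Prkar1a), -0.028 to 0.056 (Atf2), -0.075 to 0.04 (Creb1), -0.143 to 0.008 (Pde8b) and -0.01 to 0.397 (Pde1c).

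The standard errors of the 42 log2 fold changes had a median of 0.193 in females and 0.173 in males and were widest for Pde3a in females, at 0.54, or 0.377 without E249. The lowest count of any of the 42 was 16, and what depth limits was not separated from the spread between mice.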
